A study of Mus musculus with 6 samples.

Results

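The genes described here encode actin, the proteins that assemble, cut, crosslink and anchor actin filaments, the myosin II motor that pulls on them, and the transcription factor pair that responds to the actin monomer pool. They were read from a list of 50 gene symbols, and of these 49 were measured among the 18193 genes of the arrays. For 46 the listed symbol was found. The other 3, listed as Diap1, Diap3 and Mkl1, are annotated under the symbols Diaph1, Diaph3 and Mrtfa. Rock2 was not analysed here. Where several probe sets (groups of short probes against 1 transcript) belonged to a gene, the brightest over the 6 arrays was used.

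RNA came from 393P, a mass population of mouse lung tumour cells cultured from a primary tumour of a mouse with the alleles p53R172HΔg/+ and K-rasLA1/+. Both groups share this background: 3 cultures carried a scrambled control vector and 3 carried one for MKK4 shRNA, a short hairpin that lowers the transcript of MKK4, the kinase encoded by Map2k4 that activates the JNK and p38 stress kinases. The labels disagree on how the vectors were delivered, naming retroviral infection in one place and Lipofectamine transfection in another. Each group is triplicate cultures of 1 vector-bearing population, so the p-values below rest on culture-to-culture spread within 1 population per group, and another hairpin was not analysed here.

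Actin exists as monomers and as filaments. Nucleators such as the Arp2/3 complex and the formins start filaments, profilin feeds them with monomers, gelsolin and cofilin sever them, and tropomyosins coat them and set which myosins may bind. Monomeric actin also holds the coactivator MRTF-A (Mrtfa) in the cytoplasm. When monomers are used up, MRTF-A enters the nucleus and joins the serum response factor SRF on the CArG box, a short DNA motif in front of many genes of the cytoskeleton, Srf itself among them.

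Because SRF and MRTF-A are themselves on the list, the promoters of the listed genes were searched for the CArG box. RefSeq promoters of GRCm38.p6 were used, from 250 bases before the transcription start to 50 after it. Boxes with a mismatch, or outside this stretch, were not counted. The motif, CCWWWWWWGG with W for A or T, reads the same on both strands. It occurred in 7 of the 43 listed genes that had a promoter in the table (16.3%), against 229 of 14369 genes on the array (1.59%) and 488 of 27025 genes in the whole table (1.81%). The 7 genes are Srf, Cnn2, Actg1, Vcl, Myl6, Myl9 and Vil1. These 5 windows are shown because their genes carry the motif and yet gave different results: Srf and Cnn2 were lower with the shRNA, Actg1 and Vcl did not pass the test, and Myl9 was at background. Capitals mark the CArG box; each line is 5′ to 3′ on the gene's strand.
Srf, chr17:46556185-46556284, minus strand: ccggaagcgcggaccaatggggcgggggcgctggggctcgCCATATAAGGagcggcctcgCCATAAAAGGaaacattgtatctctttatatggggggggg
Cnn2, chr10:79988504-79988599, plus strand: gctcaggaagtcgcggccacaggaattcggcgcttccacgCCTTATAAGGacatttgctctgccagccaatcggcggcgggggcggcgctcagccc
Actg1, chr11:120348526-120348625, minus strand: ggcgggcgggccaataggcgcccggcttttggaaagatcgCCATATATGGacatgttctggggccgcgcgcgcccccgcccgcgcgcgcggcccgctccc
Vcl, chr14:20929148-20929247, plus strand: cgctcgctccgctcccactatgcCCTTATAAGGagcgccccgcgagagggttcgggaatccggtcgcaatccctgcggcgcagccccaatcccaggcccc
Myl9, chr2:156775263-156775362, plus strand: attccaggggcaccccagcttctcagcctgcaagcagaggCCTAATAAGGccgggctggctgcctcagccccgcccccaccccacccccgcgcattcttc

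The motif lies close to the start in most of them. In Srf the boxes begin 82 and 62 bases before the transcription start, in Cnn2 56, in Actg1 90, in Myl9 161 and in Vcl 227 bases before it. A box was present in 2 of the 11 listed genes that were lower with the shRNA (18.2%) and in 5 of the other 32 that had a promoter (15.6%). A match is a description of the letters in this window and was not tested as a binding site.

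The targeted transcript was lower in every shRNA culture. Map2k4 gave 700.3, 638 and 597 intensity units in the control cultures and 240.1, 295 and 287 in the shRNA cultures. This is a log2 change of -1.21 (limma adjusted p = 0.000127). The 6 arrays had medians of 92 to 95.76 units and correlated at r = 0.991 to 0.996 across genes. The 3 trpnX probe sets, which target a bacterial control transcript, reached 26.4 to 39.5 units per array, and a gene whose group means both lay at or below 39.5 units is called at background here. The ratio of the 3' to the 5' probe set of Actb, a sign of RNA integrity, was 1.33 to 1.37 in the control cultures and 1.34 to 1.38 in the shRNA cultures.

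Of the 49 genes, 11 fell and 2 rose with MKK4 shRNA at a limma adjusted p under 0.05 over all 18193 genes, and 36 did not pass. Those that fell were Myh14, Tpm2, Gsn, Limk2, Cnn2, Arpc5, Srf, Actn4, Tpm4, Actn1 and Tpm1, and those that rose were Mrtfa and Pfn1. The lower share was 22.4% and the higher share 4.08%, while over all genes 5.39% fell and 6.37% rose, 11.8% in all. The listed genes are mostly abundant: 44 of them lay at or above the median gene, and among all 9097 such genes 9.90% fell and 10.9% rose, against 25% and 4.55% of those 44.

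The falls were small in size. The median log2 change of the 49 genes was -0.082, against -0.007 over all genes, and 36 of 49 had a value below 0. On the deposited intensities the cultures of the groups did not overlap for 22 of the 49 genes (44.9%), while over all genes this held for 26.0%. Among all genes at or above the median gene the share was 37.4%, against 50% of the 44 listed genes there. The count of listed genes that passed in limma, 13 on all arrays, was lower with any 1 culture left out. It was 8 without control culture 3, 7 without shRNA culture 2 and 7 without shRNA culture 3. Without control culture 2 it was 9, and the lower calls went from 11 to 7. Without control culture 1 or shRNA culture 1 it was 12. The count over all genes also fell, from 2139 to 1312 without control culture 3 and 1152 without shRNA culture 2. It was 1257 without shRNA culture 3 and 1346 without control culture 2, so the fall was not limited to the listed genes. Of the 13 genes, 6 kept their call whichever culture was left out: Myh14, Tpm2, Gsn, Limk2, Cnn2 and Mrtfa.

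**Figure D1:**
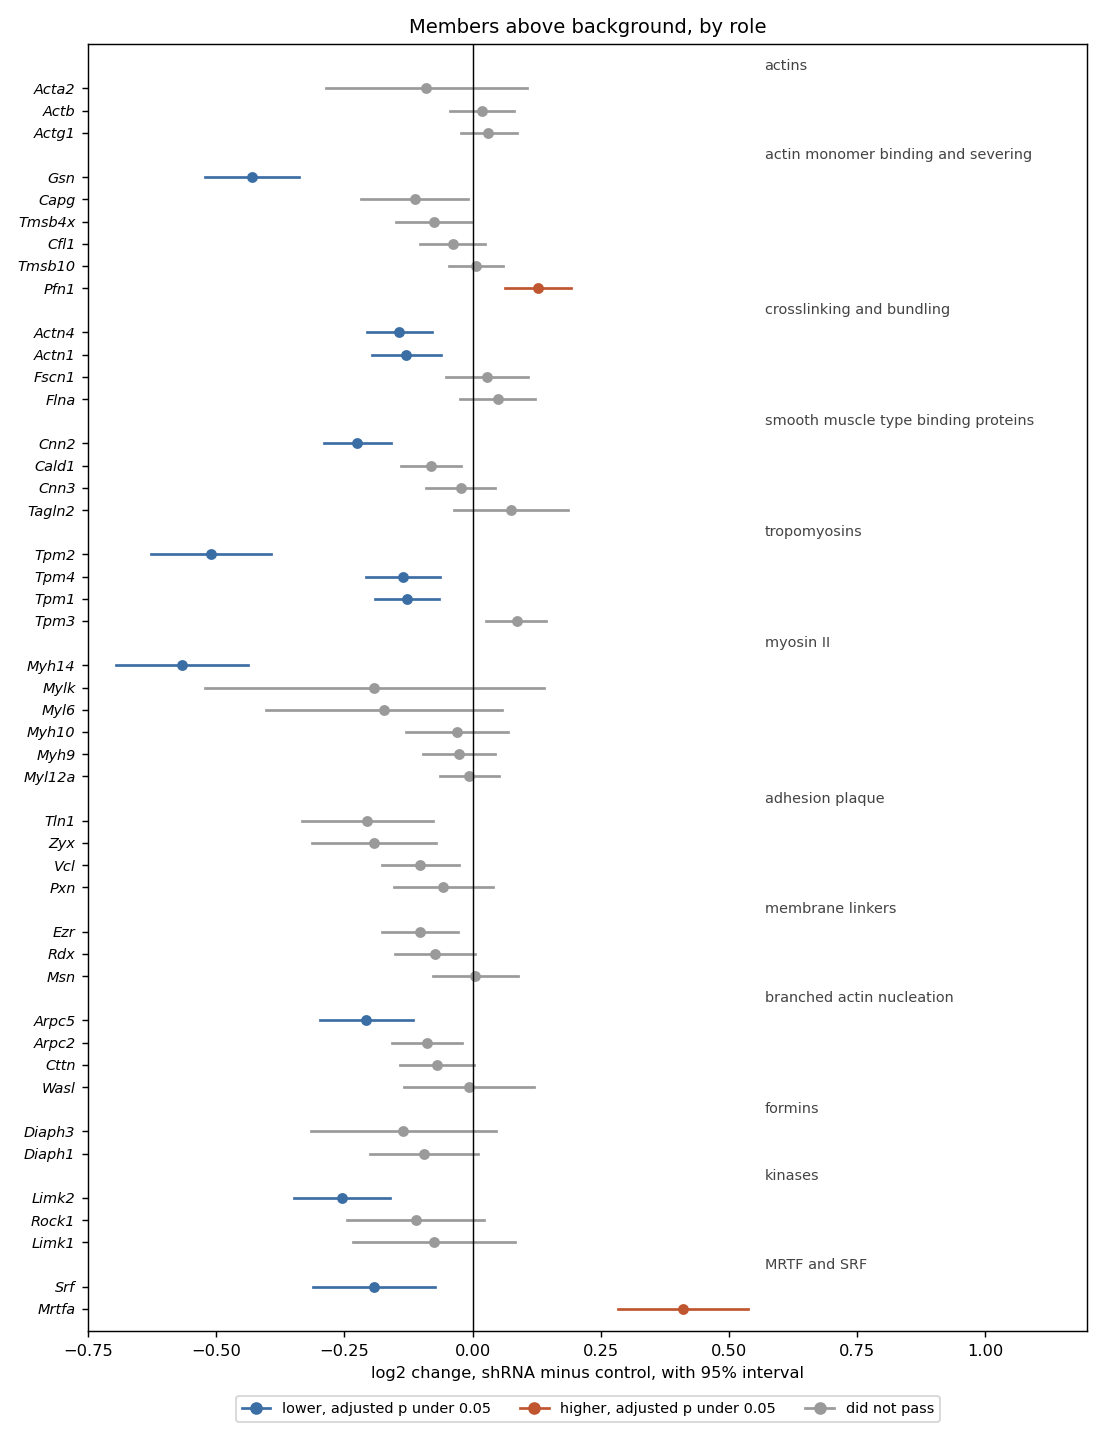
Log2 change (shRNA minus control) with its 95% interval for the 45 listed genes above background, ordered by role and coloured by the limma call at 0.05. Most points lie left of 0, the 4 largest changes being Myh14, Tpm2 and Gsn on the lower side and Mrtfa on the higher side.

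**Figure D2:**
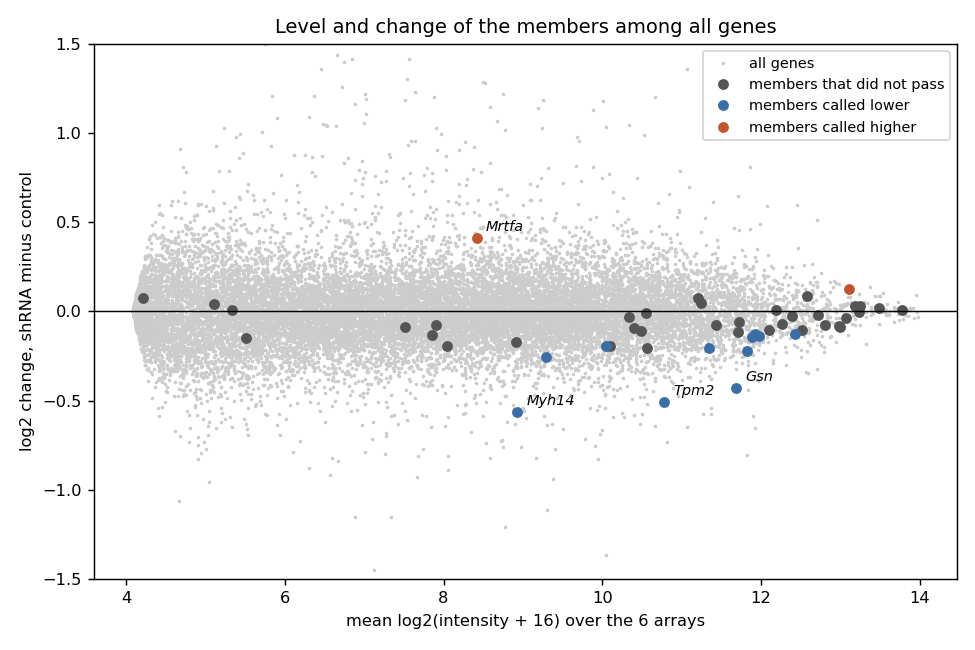
Mean log2 level over the 6 arrays (horizontal axis) against the log2 change (vertical axis) for all genes, with the listed genes marked. The listed genes sit mainly to the right, among abundant transcripts with changes under 0.6 in size, and 24 genes beyond 1.5 on the vertical axis are not drawn.

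The actins themselves did not pass the test. Actb, the cytoplasmic beta-actin, read 11167, 11439 and 11115 units in the control cultures and 11356, 11803 and 11464 in the shRNA cultures. The groups overlapped, and the log2 change was 0.018 with a 95% interval of -0.044 to 0.081. Its other probe set gave -0.024. Actg1, the cytoplasmic gamma-actin, read 9568, 9596 and 9629 units against 9691, 9729 and 10145. The shRNA cultures were all higher by a small margin, and the log2 change was 0.031 (-0.023 to 0.086, limma adjusted p = 0.499). Acta2, the smooth muscle actin, was dim, at 171, 166 and 180.1 units against 166, 151 and 169.7, with a log2 change of -0.09 (-0.286 to 0.106). The intervals of Actb and Actg1 leave room for changes of less than 0.1 on the log2 scale in either direction. The highest value on any array was 15870 to 16829 units, so Actb and Actg1 lie toward the bright end of the scale.

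Among the proteins that bind actin monomers or cut filaments, gelsolin fell and profilin rose. Gsn encodes gelsolin, which severs filaments and caps their fast-growing end. It read 3875, 3596 and 3974 units in the control cultures and 2814, 2942 and 2800.3 in the shRNA cultures. Every shRNA culture lay below every control culture: the mean went from 3815 ± 196 to 2852 ± 78.3 units (SD, n = 3), a 1.35-fold fall (log2 -0.43, SE 0.040, limma adjusted p = 0.00061). The other 4 Gsn probe sets above background also fell, by 0.32 to 0.44 on the log2 scale. The mean of all Gsn probe sets, 1 of them at background, gave -0.278 (limma adjusted p = 0.00613).

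Pfn1 encodes profilin, which delivers monomers to growing filaments. It read 8198.5, 8498 and 8471 units against 9187, 9353 and 9336. The groups did not overlap, and the log2 change was 0.13 (SE 0.028, limma adjusted p = 0.0238). This call was lost without control culture 3 (0.0549) or without shRNA culture 1 (0.0786), 2 (0.0922) or 3 (0.0838), all limma adjusted p-values. With each chromosome's median centred, the log2 change was 0.063 (limma adjusted p = 0.323).

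The other genes of this role did not pass. Cfl1 (cofilin) had a log2 change of -0.039, Tmsb4x and Tmsb10 (thymosins that sequester monomers) -0.076 and 0.007, and Capg (a capping protein of the gelsolin family) -0.113. Without control culture 1 Capg passed, at -0.163 (limma adjusted p = 0.0283), and with any other culture left out it did not (up to 0.407). Vil1, the villin of intestinal microvilli, read 1, 4.43 and 1 units against 2.67, 2.75 and 3.77 and was at background throughout.

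Both alpha-actinins, which crosslink filaments, fell by a small amount. Actn4 read 3871, 3941 and 3933 units in the control cultures and 3542, 3612 and 3590.2 in the shRNA cultures. The groups were apart, with a log2 change of -0.14 (SE 0.027, limma adjusted p = 0.0131). Actn1 read 5593, 5831 and 5653 units against 5287, 5247 and 5395. These groups were apart as well, with a log2 change of -0.13 (SE 0.029, limma adjusted p = 0.0256), and its other probe sets gave -0.11 and -0.07. Actn4 lost its call without control culture 3 (limma adjusted p = 0.0511) or shRNA culture 2 (0.0616) or 3 (0.0586), and with each chromosome's median centred it was at -0.09 (0.159). Actn1 lost its call without control culture 2 (0.0750) or 3 (0.0742) or without shRNA culture 1 (0.0689), 2 (0.107) or 3 (0.0709). The remaining crosslinkers, Flna (filamin A, 0.05) and Fscn1 (fascin, which bundles filaments in filopodia, 0.03), did not pass.

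Of the binding proteins first known from smooth muscle, Cnn2 fell. Cnn2 encodes calponin 2, a calponin also found outside muscle. It read 3893, 3876 and 3849 units in the control cultures and 3345, 3371 and 3273 in the shRNA cultures. The groups were far apart relative to their spread: 3873 ± 22.2 against 3330 ± 51.1 units (SD, n = 3), a 1.17-fold fall (log2 -0.23, SE 0.028, limma adjusted p = 0.00206). Cnn3, calponin 3, had a log2 change of -0.02 and Tagln2, transgelin 2, one of 0.08, and neither passed. The dimmer Cnn3 probe sets gave -0.074 to -0.139. None of these passed where every probe set was tested on its own (lowest limma adjusted p = 0.0585).

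Cald1 (caldesmon, which hinders myosin on the filament) had a log2 change of -0.08 on its brightest probe set and did not pass. A dimmer Cald1 probe set gave 254 ± 18.7 units in the control cultures and 203 ± 11.2 in the shRNA cultures (SD, n = 3). Its log2 change of -0.32 passed where every probe set was tested on its own (limma adjusted p = 0.0458). Cald1 probe sets brighter than this one, at 3351 and 3146 units in the control cultures, gave -0.135 and -0.119. Neither passed in the same test (limma adjusted p = 0.290 and 0.314). Tagln and Cnn1, genes typical of smooth muscle, were at background in both groups. Tagln, transgelin, read 33.8, 20.6 and 20.4 units against 25.3, 16.1 and 34.2, and Cnn1, calponin 1, 22.1, 18.8 and 13.9 against 22.9, 8.57 and 28.2.

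The tropomyosins, coiled coils that run along the filament, differed among themselves. Tpm2 read 1980.5, 2105 and 2166 units in the control cultures and 1461, 1499.9 and 1441 in the shRNA cultures. The lowest control culture lay well above the highest shRNA culture: the means were 2084 ± 94.4 and 1467 ± 30.0 units (SD, n = 3), a 1.43-fold fall (log2 -0.51, SE 0.051, limma adjusted p = 0.000809). The other Tpm2 probe sets gave -0.61, -0.51 and -0.24. The last is the one Tpm2 probe set not marked by its name as able to match several transcripts, and it did not pass (limma adjusted p = 0.175 with the marked sets left out).

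Tpm1 and Tpm4 fell less. Tpm1 read 4128, 4049.9 and 3949.6 units against 3586, 3827 and 3812 (log2 -0.13, SE 0.027, limma adjusted p = 0.0207). Tpm4 read 4144, 4241 and 4129 units against 3685, 3881 and 3989 (log2 -0.14, SE 0.031, limma adjusted p = 0.0272). For both genes the groups did not overlap. The other Tpm1 probe sets gave -0.172, -0.125 and -0.157. Tpm1 lost its call without control culture 1 (limma adjusted p = 0.0558) or 2 (0.0674) or without shRNA culture 1 (0.0686), 2 (0.0758) or 3 (0.0611), and Tpm4 without control culture 2 (0.0878) or 3 (0.0701) or shRNA culture 1 (0.0866) or 2 (0.105). Tpm3 did not pass, with a log2 change of 0.09 (limma adjusted p = 0.0725). Its groups did not overlap, at 5844 to 5958 units in the control cultures and 6295 to 6465 in the shRNA cultures. The other Tpm3 probe sets above background differed in direction, at 0.048, 0.072 and -0.174.

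In myosin II, the motor that contracts actin bundles, 1 of the 3 measured heavy chains fell. Myh14 encodes the heavy chain of non-muscle myosin IIC. It read 569, 592 and 561 units in the control cultures and 359.6, 424 and 379 in the shRNA cultures. The groups were far apart, at 574 ± 16.2 and 388 ± 32.9 units (SD, n = 3), and the 1.48-fold fall (log2 -0.57, SE 0.056, limma adjusted p = 0.000767) was the largest change among the listed genes. Myh9, the heavy chain of myosin IIA, had a log2 change of -0.03 (-0.097 to 0.044) and Myh10, that of IIB, -0.03 (-0.13 to 0.069), with overlapping groups for both. The other Myh9 probe sets gave -0.139, 0.071, 0.063 and 0.106. The first passed once sets that may match more than 1 transcript were left out (limma adjusted p = 0.0404), and did not pass where every probe set was tested on its own (0.0529).

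The light chains and their kinase did not pass. Myl12a, a regulatory light chain, had a log2 change of -0.006. Myl6, the essential light chain, had -0.17, with 485 to 492 units in the control cultures and 384 to 502 in the shRNA cultures. Myl6 passed without shRNA culture 1 (-0.295, limma adjusted p = 0.0264) and not with another culture left out (up to 0.699). Mylk, the kinase that activates the regulatory light chains, had -0.19. Myl9, the regulatory light chain typical of smooth muscle, read 38.5, 37 and 21.9 units against 28.6, 19.5 and 34.3 and was at background.

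None of the adhesion plaque genes passed, and all their log2 changes were below 0. Tln1 encodes talin, which joins integrins to actin. It read 1734, 1518 and 1560.3 units in the control cultures and 1427, 1405 and 1361 in the shRNA cultures, with a log2 change of -0.21 (limma adjusted p = 0.0505). Zyx, zyxin, which marks adhesions under tension, read 1129, 1171 and 1148 against 1032, 1029.8 and 971, with -0.19 (limma adjusted p = 0.0530). Neither gene's groups overlapped, and both passed without shRNA culture 1 (limma adjusted p = 0.0347 for Tln1 and 0.0232 for Zyx). With any other culture left out neither passed (limma adjusted p up to 0.176 for both). The other Tln1 probe sets above background gave -0.025 and -0.13. Vcl (vinculin) had -0.10 and Pxn (paxillin) -0.06. Vcl passed without control culture 2 (-0.131, limma adjusted p = 0.0455) and not with another culture left out (up to 0.253).

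The membrane linkers did not pass either. Ezr (ezrin) had a log2 change of -0.10, Rdx (radixin) -0.07 and Msn (moesin) 0.005. These 3 proteins tether filaments to the plasma membrane.

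Of the genes for branched filaments, Arpc5, a subunit of the Arp2/3 complex, fell. It read 2768, 2873 and 2732 units in the control cultures and 2251, 2599 and 2474 in the shRNA cultures. The groups did not overlap, though the shRNA cultures were spread more widely: 2791 ± 73.1 against 2441 ± 176 units (SD, n = 3; log2 -0.21, SE 0.039, limma adjusted p = 0.0125). The call was lost without control culture 2 (limma adjusted p = 0.0519) or shRNA culture 3 (0.0551), and averaging with its other probe set, which was at background, gave -0.037. Arpc2, another subunit, had -0.09, Cttn (cortactin, which stabilises branches) -0.07 and Wasl (N-WASP, which activates the complex) -0.007, and none of them passed. The formins Diaph1 and Diaph3, which elongate unbranched filaments, had -0.09 and -0.14 and did not pass.

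Among the kinases, Limk2 fell. LIM kinases inactivate cofilin. Limk2 read 668, 652 and 665 units in the control cultures and 543, 577 and 560.2 in the shRNA cultures. The groups were apart by several times their spread, at 662 ± 8.05 and 559.9 ± 16.9 units (SD, n = 3; a 1.19-fold fall, log2 -0.255, SE 0.041, limma adjusted p = 0.00619), and another probe set gave -0.23. The third Limk2 probe set was at background in both groups, and averaging all sets gave -0.115 (limma adjusted p = 0.433). Limk1 had -0.08 and the kinase gene Rock1 -0.11, and neither passed.

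The transcription factor pair moved in opposite directions. Mrtfa, listed as Mkl1, read 270.3, 288 and 279 units in the control cultures and 371, 397 and 375 in the shRNA cultures. Every shRNA culture was higher: 279 ± 9.10 against 381 ± 13.7 units (SD, n = 3), a 1.33-fold rise (log2 0.41, SE 0.055, limma adjusted p = 0.00293). Srf, whose promoter window above holds a pair of CArG boxes, read 1113, 1108 and 1135 units against 998, 966 and 977. Its groups did not overlap either, with a log2 change of -0.19 (SE 0.052, limma adjusted p = 0.0497).

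The Srf call lies just inside the threshold. It was lost without control culture 1 (limma adjusted p = 0.0849), 2 (0.128) or 3 (0.163) and without shRNA culture 2 (0.165) or 3 (0.155). A dimmer Srf probe set gave -0.075 (-0.234 to 0.084).

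**Figure D3:**
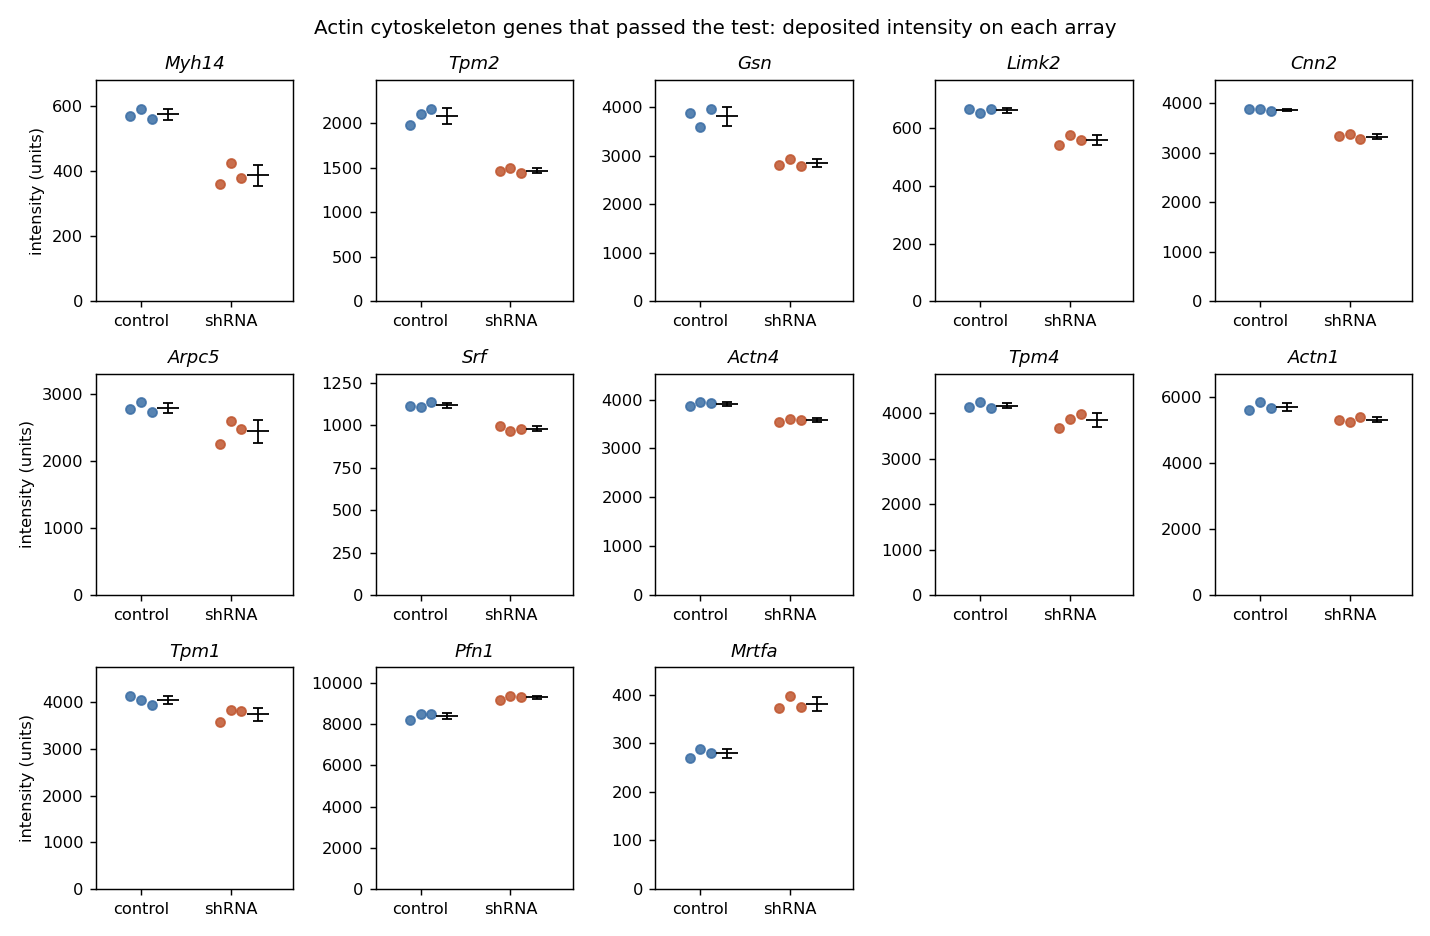
Deposited intensity in each culture for the 13 listed genes that passed, 1 panel a gene, with the group mean and SD, on axes that start at 0. In every panel the 3 control and 3 shRNA cultures do not overlap; the gap is wide for Myh14, Tpm2, Gsn and Mrtfa and narrow for Actn1, Tpm1 and Tpm4.

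**Figure D4:**
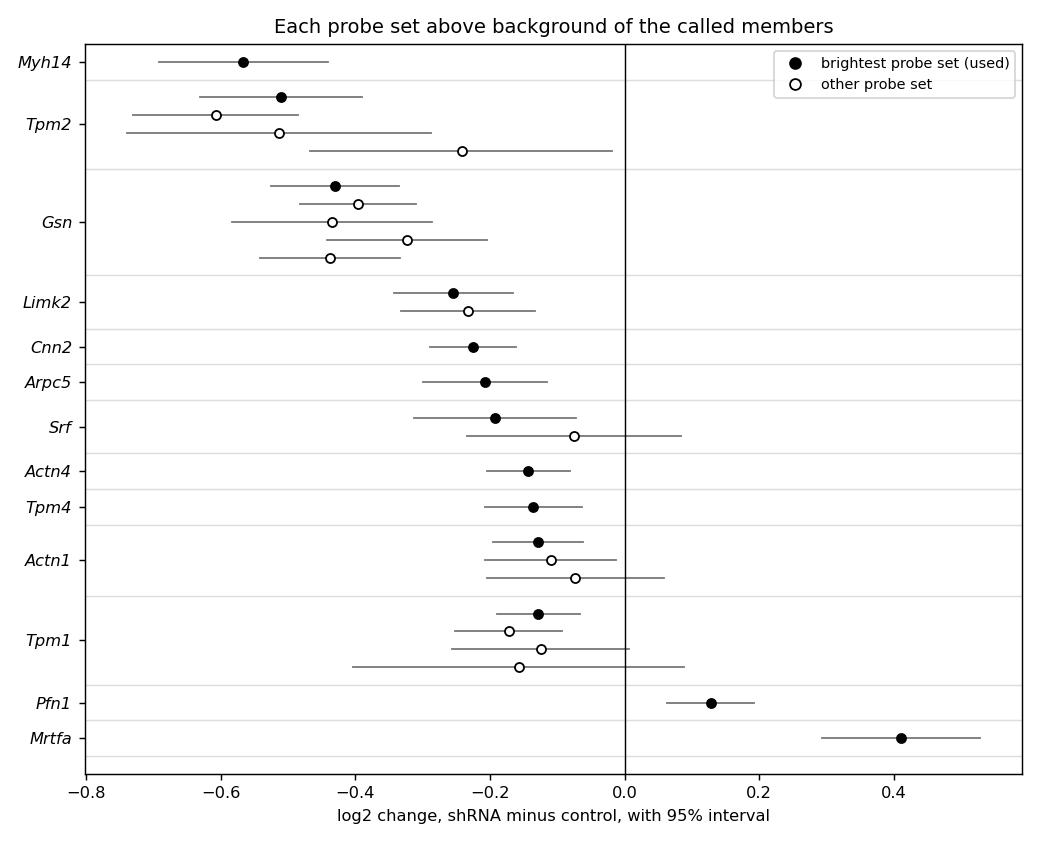
Log2 change with its 95% interval for every probe set above background of the 13 genes that passed; filled points are the brightest probe set and open points the others. The 5 Gsn probe sets lie between -0.44 and -0.32, the Tpm2 sets between -0.61 and -0.24, and the open Srf point is nearer to 0 than the filled one.

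Members of 1 family can be set side by side by the difference of their log2 values within each culture. The pairs were picked after their values were seen, each with a gene that passed, so the differences are given as descriptions, with no test. In the shRNA cultures Tpm2 less Tpm1 was lower by 0.38, Tpm2 less Tpm4 by 0.375 and Tpm2 less Tpm3 by 0.60. These rest on the brightest probe set of each gene, and the interval of the unmarked Tpm2 set (-0.467 to -0.018) holds the changes of Tpm1 and Tpm4. Myh14 less Myh9 and Myh14 less Myh10 were each lower by 0.54. The differences were -0.32 for Gsn less Capg, -0.20 for Cnn2 less Cnn3 and -0.18 for Limk2 less Limk1. The calponin difference rests on the brightest Cnn3 probe set, at -0.023, while the dimmer Cnn3 sets gave -0.074 to -0.139.

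Genes of the same pathways that are not among the 49 gave 18 higher and 17 lower of 146 measured (12.3% and 11.6%), with a median log2 change of -0.023. Over all genes the shares were 6.37% and 5.39%. Of the 146 genes 115 lay at or above the median gene, and among all such genes the shares were 10.9% and 9.90%, close to those of the lists. The count of 35 was 21 without control culture 2, 20 without control culture 3, 19 without shRNA culture 2 and 21 without shRNA culture 3. Of 28 genes that the naming rule picked, 14 kept their call whichever culture was left out. The genes named next, except Mrtfb, are among these 14 and are given with log2 changes and mean units.

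Arp2/3 and its activators of the WAVE complex gave 1 higher and 1 lower of 15, with Abi2, a WAVE complex subunit, at 0.30.

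Formins and Ena/VASP elongation factors gave 3 higher and none lower of 13 in limma, with a median log2 change of 0.10. Fmnl2, a formin of cell protrusions, rose by 0.81, from 151 to 278 units.

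Severing and capping genes gave 2 higher and 2 lower of 22: Flii, of the gelsolin family, at 0.29, Ssh1, a phosphatase that reactivates cofilin, at -0.37 (1010 to 784 units), and Dstn (destrin, a relative of cofilin) at -0.20. Crosslinkers and the membrane skeleton gave 3 higher and 3 lower of 15. Pls1, a plastin that bundles filaments, went from 38.9 units, at the level of the background controls, to 111, Marcks rose by 0.44 and the spectrin gene Sptan1 fell by 0.19. Further adhesion plaque genes gave 2 higher and 4 lower of 17, with Fblim1 at -0.24 and Lpp, a relative of zyxin, at -0.22.

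Further myosins and light chain regulators gave 2 higher and 2 lower of 19, with Mprip, which brings myosin phosphatase to filaments, at 0.37. Partners and targets of MRTF and SRF gave 1 higher and 1 lower of 10. The lower gene, Mrtfb (listed as Mkl2), went from 1585 to 1415 units (log2 -0.17, limma adjusted p = 0.0198). Its limma adjusted p was 0.0196 to 0.0869 with 1 culture left out. The higher gene, Ccn2, rose from 3262 to 3909 units (log2 0.25). The size of some of these rests on the probe set used: leaving out probe sets that may match more than 1 transcript, Mprip was at 0.093 (limma adjusted p = 0.43) and Ssh1 at -0.263 (0.0719). On the mean of all probe sets Mprip was at 0.193 (limma adjusted p = 0.0673), Ssh1 at -0.166 (0.169) and Flii at 0.228 (0.0652).

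The cell type labels could be set against marker genes. All 6 epithelial markers were above background, with summed intensities of 44070 to 44522 units in the control cultures and 43717 to 44755 in the shRNA cultures. Epcam (-0.35) and Cdh1 (-0.14) fell while Krt19 (0.23) rose. Of 7 smooth muscle markers Myh11 and Lmod1 were at background and none passed in limma, also at an unadjusted p of 0.05, and their sum was 956 to 976 against 876 to 919 units.

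Of 7 striated muscle markers Myl1 and Myog were at background, and the sum was 3946 to 4309 against 3657 to 3775 units. Most of it came from Tnnt2, which fell from 3359 to 2972 (log2 -0.19). Fibroblast markers summed to 460 to 509 units against 441 to 517, leukocyte markers to 281 to 286 against 267 to 287, and endothelial markers to 542 to 678 against 491 to 619. The muscle marker sums were lower in the shRNA cultures, and their part in the 11 falls was not tested. In bulk RNA, fewer cells of a type and less RNA per cell cannot be told apart.

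Alternative processing left some calls standing more often than others. Myh14, Gsn, Cnn2 and Mrtfa passed in all 16 alternatives, Tpm2 in 15 and Limk2 in 14. Myh14, Cnn2 and Mrtfa have 1 probe set each. Averaging probe sets, or leaving out marked ones, could therefore not change their log2 values, unlike those of Tpm2 and Limk2. Arpc5 passed in 10, Tpm4 and Pfn1 in 8, Actn4 in 8 of 15, Actn1 and Tpm1 in 6 and Srf in 5.

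**Figure D5:**
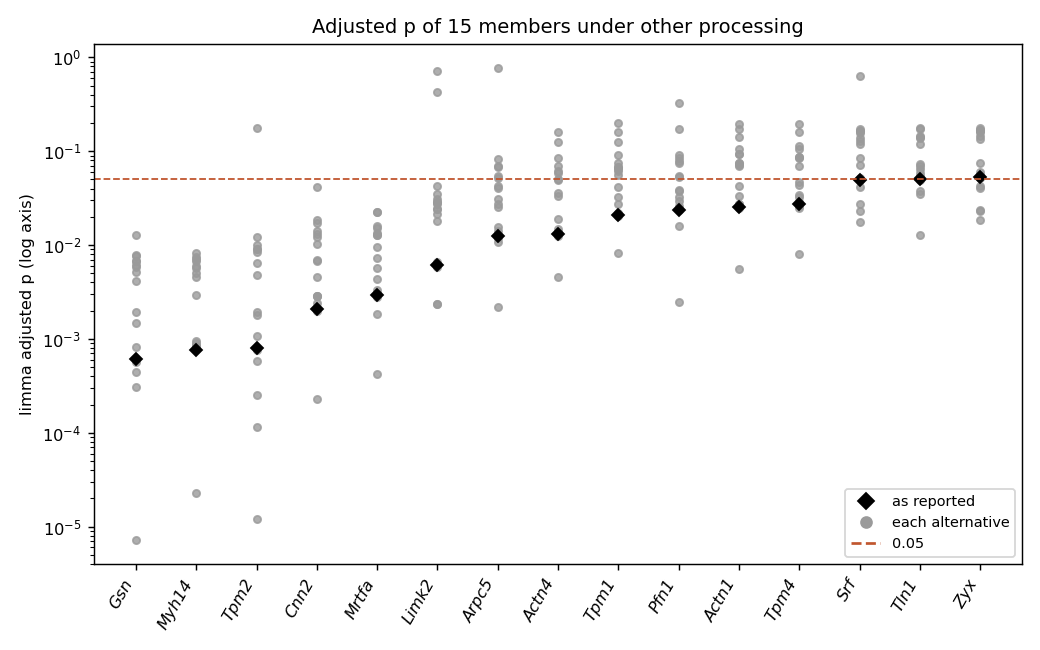
Limma adjusted p (log axis) of the 13 genes that passed and of Tln1 and Zyx, as reported (diamonds) and under each alternative processing (circles), with the threshold of 0.05 as a dashed line. Myh14, Gsn, Cnn2 and Mrtfa stay on the passing side in all 16 alternatives, while Srf, Actn1 and Tpm1 are mostly on the other side.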

How the data were processed

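The deposited table gives 1-colour Affymetrix array intensity values on a linear scale, 1 per probe set, for 6 cultures of biotin-labelled RNA per the labels. For probe summarisation, background correction and any earlier normalization by the authors, the sources used here give no method. Here 16 was added, log2 was taken and the arrays were quantile-normalized. The brightest probe set annotated to exactly 1 gene represented each gene. Groups were compared over 18193 genes with limma 3.58.1 (R 4.3.3; lmFit, eBayes with a trend), with group as the single term and Benjamini-Hochberg adjustment at 0.05. Fold changes are on the log2(intensity + 16) scale and understate changes of dim genes. Means and SDs are of deposited values. The number of arrays limits the precision.

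Genes that passed, and Actb, Actg1, Acta2, Tagln, Myl9, Srf, Mrtfa and Vil1, are given for every culture, the others by their log2 change or range. Cnn1, Tln1 and Zyx are also given for every culture, as chosen after their values were seen. Of each further pathway list up to 2 called genes in each direction were picked by size. Members and lists were chosen with earlier results of these data known, so their counts are descriptions. The counts over these lists together include lists that are not reported here. The fit was checked on simulated data with 200 changed genes. It recovered 52% of the changes of 0.5 on the log2 scale and 84% of those of 1, and 2.86% of its calls were false. Smaller changes, the size of most changes of the listed genes, were not simulated. The closing section gives the alternatives tried.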

Additional observations from a re-analysis of the deposited data

How the results depend on the processing

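The labels' replicate letters did not pair the cultures: deviations of same-letter cultures correlated at -0.031, -0.006 and -0.114, and none matched its own letter best. With a replicate block 8 listed genes passed (7 of the 13) in place of 13, 18 in place of 35 of the further pathway genes, and 1206 in place of 2139 of all genes. Without the trend in the prior variance the counts were 6, 15 and 1127, and with array medians made equal 8 listed and 21 further pathway genes, with 1438 over all genes. With dimmer genes left out 20 of 44 listed genes passed, the 13 among them. In that setting 43 of 115 further pathway genes and 2630 of 9097 genes over all also passed. Leaving out 1 culture gave 7 to 12 listed, 19 to 25 further pathway and 1152 to 1667 of all genes. Myh14, Gsn, Cnn2 and Mrtfa passed in all 16 alternatives, though for Myh14, Cnn2 and Mrtfa, with 1 probe set each, the choice of probe sets could not matter. Tpm2 missed in 1, without probe sets that may match more than 1 transcript (-0.242, limma adjusted p = 0.175), where Limk2 turned to 0.142 on a probe set at background. The cause of the other lost calls was not tested. The median of all genes, -0.007, lay between -0.01 and 0.002 under the other scalings.

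Among genes that did not pass, log2 changes near 0 turned sign. On the mean of all probe sets Actb was at -0.003, Acta2 0.028, Myh9 0.015, Myh10 0.085, Pxn 0.038, Rdx 0.009, Fscn1 -0.026 and Myl12b, which had passed as lower, 0.041. Without probe sets that may match more than 1 transcript Actb was at -0.024, and Acta2 at 0.187 and Cttn at 0.176 on probe sets at background. With chromosome medians centred Actb was at -0.021, Actg1 -0.034, Myl12a 0.048, Cfl1 0.033, Msn -0.040 and Fscn1 -0.011. On deposited values and with medians made equal Myl12a was at 0.008 and 0.004, Myh9 at 0.007 and 0.003, and Wasl at 0.006 and 0.002. Leaving out 1 culture moved Myl12a between -0.024 and 0.003, Tmsb10 between -0.007 and 0.015, Msn between -0.030 and 0.027, Fscn1 between -0.006 and 0.058 and Wasl between -0.060 and 0.046.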
